A study of Mus musculus with 12 samples.

Results

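The AP-1 and Egr immediate early factors described here are 10 mouse genes, namely Fos, Fosb, Fosl1, Fosl2, Jun, Junb, Jund, Egr1, Egr2 and Egr3. They were chosen by name, and every probe set that the array platform's annotation assigns to these symbols was taken. This gave 16 probe sets of the 45101 on the array, and 10 genes of the 18194 with a single symbol. Of the 16 probe sets, 15 stood above the 40th percentile of their array on at least 3 of the 12 arrays and were tested, so that each of the 10 genes had at least 1 tested probe set. The remaining one, for Egr3, is given as values only.

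Gene expression had been measured with Affymetrix arrays on pre-leukemic mouse bone marrow cultures, with 3 arrays in each of 4 groups, which the series record calls independent experiments. The cultures came from bone marrow of (C57Bl/6Ly-Pep3b x C3H/HeJ) F1 mice given 5-fluorouracil, which spares cells that are not dividing. All 4 groups carried a retrovirus for NUP98-HOXD13, a fusion gene found in human myeloid leukaemia, and had grown for 4 weeks with 3 cytokines, which were stem cell factor (100 ng/ml) and IL-3 (6 ng/ml) of mouse and IL-6 (10 ng/ml) of human sequence. During 2 days on irradiated E86 cells, the virus-producing fibroblasts, the cultures received a further vector.

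In the MEIS1-WT group that vector carried wild-type MEIS1, a homeodomain protein that binds DNA together with HOX and PBX proteins. In the MEIS1-deltaHD group it carried MEIS1 lacking the homeodomain, which is the part that contacts DNA. In the M33-MEIS1 group it carried M33-MEIS1, for which the labels give no further description. Cbx2, a Polycomb protein that binds repressive chromatin, was formerly called M33. In the MIY control group it coded for YFP alone. RNA came from sorted cells, and the sources used here give neither the gate nor the time since infection. All groups therefore share the fusion gene, the cytokines and the viral infection, and no group without NUP98-HOXD13 was compared.

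Immediate early genes are switched on within minutes of a signal such as a growth factor, from factors already present in the cell and without new protein synthesis. Fos and Jun proteins pair through leucine zippers to form AP-1, which binds the sequence known as the TPA-responsive element. Egr proteins are zinc finger factors that bind GC-rich sites and are switched off again by the Nab co-repressors. In myeloid cells both families are known for their roles in the response to cytokines and in monocyte and macrophage differentiation.

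Each value below is the deposited signal of 1 probe set on 1 array, on a linear scale on which every array had been set to the same trimmed mean by the authors. Differences are log2(signal + 16) of the group named ahead of the other, with the standard error (SE) of a limma model fitted to all 12 arrays. A gene passed at a Benjamini-Hochberg adjusted p below 0.05 over 19990 features, which were genes or probe sets without a single symbol. Adding 16 makes the differences of dim probe sets smaller than the ratios of their signals. The p-values measure the spread between these arrays, and 3 arrays a group limit the precision. Signals of different probe sets cannot be compared with each other.

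Before any comparison, the control arrays stood apart from the rest. Their median signal was 17.4 to 21.6, against 13.1 to 16.04 on the 9 construct arrays, although the trimmed means were equal. Among the control arrays, replicate 2 was the highest in 13 of the 16 probe sets, replicate 3 in 2 and replicate 1 in 1. Results that rest on that array are given with and without it. The signal ratio of 3' to 5' actin probe sets, a measure of RNA integrity, was 1.44 to 1.48, 1.30 to 1.404, 1.31 to 1.44 and 1.49 to 1.51 in MEIS1-WT, MEIS1-deltaHD, M33-MEIS1 and control. For Gapdh, the other such control, it was 0.822 to 0.838, 0.811 to 0.828, 0.830 to 0.882 and 0.774 to 0.801, so control was highest by actin and lowest by Gapdh. The part of RNA integrity in the results was not tested. Mpo, an enzyme of myeloid progenitors, read 5169 to 8473 over all 12 arrays, so a defining marker of the labelled myeloid cells was present.

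**Figure D1:**
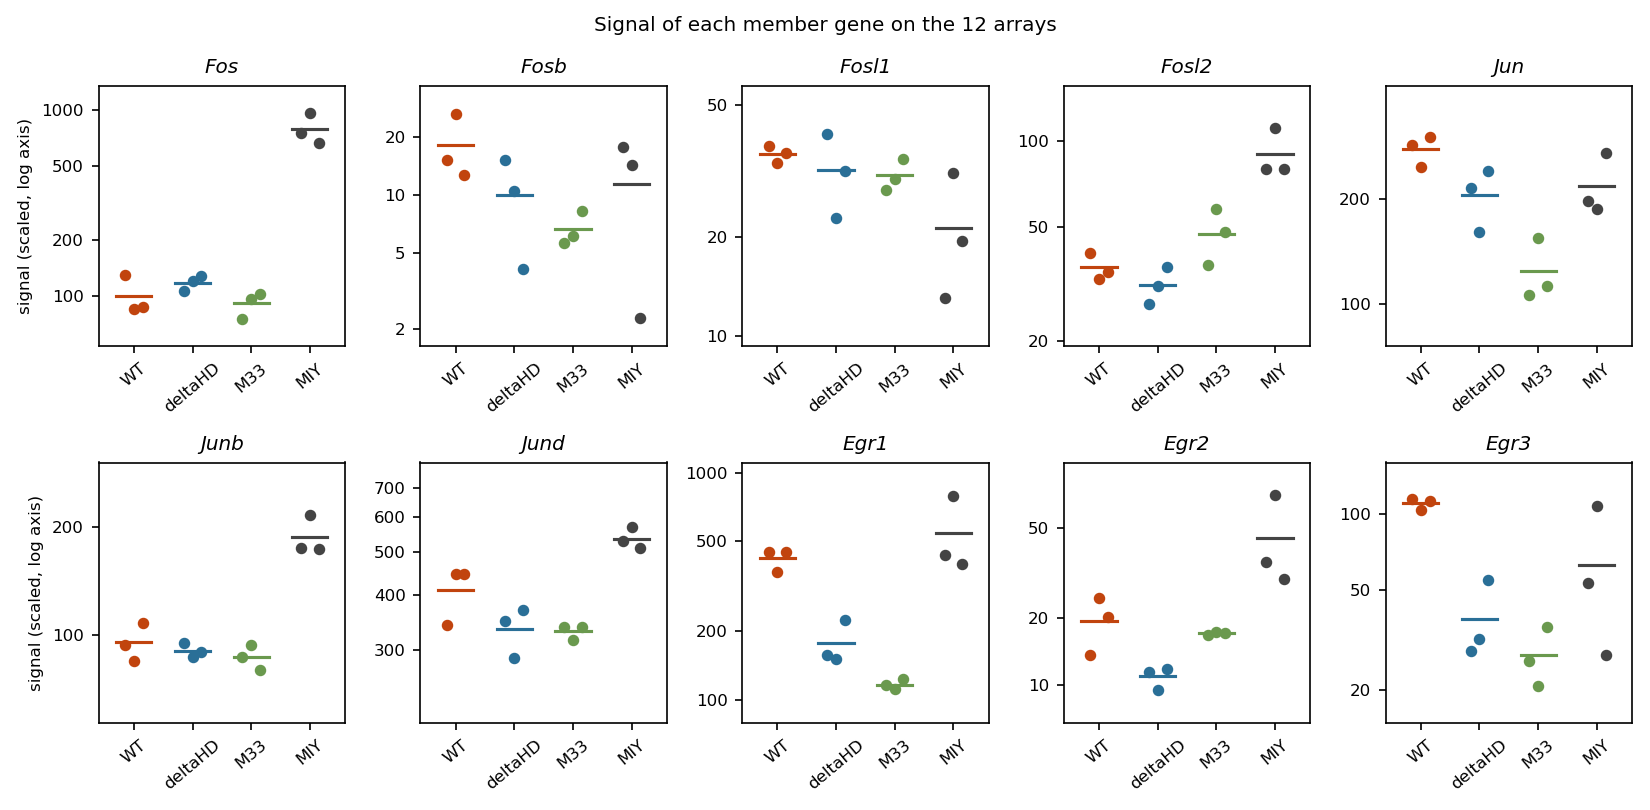
Signal of the tested probe set of each of the 10 genes on every array (log axis, scaled signal units, range set separately in each panel), for MEIS1-WT, MEIS1-deltaHD, M33-MEIS1 and MIY control from left to right. Points are arrays in the order of their replicate numbers and lines are means of 3. Fos, Fosl2, Junb, Jund and Egr2 were higher on all 3 control arrays than on any other. Egr1 and Egr3 were high with MEIS1-WT as well as on some or all control arrays.

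Fos codes for an AP-1 subunit that cannot pair with itself and binds DNA beside a partner such as a Jun protein. Of the 10 genes, Fos had the largest difference from control with each of the 3 constructs. Probe set 1423100_at read 129, 85.4 and 86.6 on the MEIS1-WT arrays, 106, 119.8 and 128 on the MEIS1-deltaHD arrays, 75.1, 95.9 and 102 on the M33-MEIS1 arrays, and 753, 961 and 666 on the control arrays. All 9 construct arrays lay far below all 3 control arrays. The MEIS1-WT arrays overlapped those of both other constructs, and all MEIS1-deltaHD arrays were above all M33-MEIS1 arrays. Mean control signal was 7.91 times that with MEIS1-WT, 6.74 times that with MEIS1-deltaHD and 8.73 times that with M33-MEIS1.

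On the log2 scale Fos differed from control by -2.80 (SE 0.14, adjusted p = 9.31e-14) with MEIS1-WT, by -2.58 (SE 0.14, adjusted p = 6.19e-13) with MEIS1-deltaHD and by -2.91 (SE 0.14, adjusted p = 1.12e-13) with M33-MEIS1. No pair of constructs differed in Fos at the threshold, with differences of -0.22 for MEIS1-WT minus MEIS1-deltaHD (adjusted p = 0.499), -0.33 for M33-MEIS1 minus MEIS1-deltaHD (adjusted p = 0.406) and -0.11 for M33-MEIS1 minus MEIS1-WT (adjusted p = 0.776). In a mixed culture, fewer cells of a type and less RNA per cell cannot be told apart, here and in every result that follows.

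Markers of monocytes and macrophages were lower beside Fos. All 12 monocyte and macrophage markers were measured, and their summed signal was 739 to 895 with MEIS1-WT, 2715 to 2952 with MEIS1-deltaHD, 4320 to 4792 with M33-MEIS1 and 13681 to 15864 in control. These ranges did not overlap in any pair of groups. Fos signals with MEIS1-WT overlapped those with MEIS1-deltaHD and those with M33-MEIS1, and the latter groups did not overlap each other in Fos. The markers were lower than in control for 12 of 12 with MEIS1-WT, 11 of 12 with MEIS1-deltaHD and 11 of 12 with M33-MEIS1, and none was at 0. Csf1r, the receptor for the macrophage growth factor CSF1, read 25.7 to 36.9 with MEIS1-WT, 409 to 452 with MEIS1-deltaHD, 618 to 656 with M33-MEIS1 and 1521 to 1707 in control. The part of this cell type in the Fos result was not tested.

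Of 13 fibroblast markers, listed because of the virus-producing cells, 8 were measured. Their summed signal was 359 to 412 with MEIS1-WT, 265 to 369 with MEIS1-deltaHD, 289 to 306 with M33-MEIS1 and 476 to 573 in control. Pdgfrb alone passed against control in each of the 3 comparisons, as lower. Col1a1, the main collagen of fibroblasts, was dim throughout, at 10.4 to 13.2, 3.51 to 6.61, 1.18 to 4.77 and 8.01 to 18.4 in the same order of groups. The part of these cells was not tested either. Of 6 heat shock genes, listed as a sign of stress during handling, 3 were higher and 0 lower than in control with each construct. All features gave 13.3%, 13.8% and 12.4% higher and 19.4%, 22.7% and 18.3% lower. Hsph1, a co-chaperone, was higher by 1.53, 1.54 and 1.34 in the order of constructs above. Mean signals of Hspa8, also on the list, were 6918, 6337 and 6876, against 7027 in control. The part of such stress in the Fos result was not tested.

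The Fos promoter is shown because Fos had the largest differences. RefSeq's window for it, from 250 bases before the annotated start to 50 after it, lies at chr12:85473640-85473939 on the plus strand of GRCm38.p6. Capitals mark TGACGT, the core of the cyclic AMP response element, at positions -66 to -61 from the start.
Fos: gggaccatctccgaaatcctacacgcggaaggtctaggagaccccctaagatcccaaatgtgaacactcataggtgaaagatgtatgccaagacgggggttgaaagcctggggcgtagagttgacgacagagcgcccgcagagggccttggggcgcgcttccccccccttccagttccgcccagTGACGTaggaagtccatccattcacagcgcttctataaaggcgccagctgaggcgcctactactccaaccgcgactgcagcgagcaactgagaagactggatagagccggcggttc
These 6 letters were present on either strand in 7.51% of all 32851 windows of the table. The match is a description of the sequence and not of binding.

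Fosl2, whose protein Fra-2 also pairs with Jun proteins, followed Fos at lower size. Probe set 1437247_at read 40.6, 32.8 and 34.8 with MEIS1-WT, 26.8, 31.0 and 36.3 with MEIS1-deltaHD, 36.7, 57.6 and 47.9 with M33-MEIS1, and 79.7, 111 and 79.8 in control. Every construct array was below every control array. The differences from control were -1.02 (SE 0.16, adjusted p = 2.14e-05), -1.16 (SE 0.16, adjusted p = 3.72e-06) and -0.74 (SE 0.16, adjusted p = 0.000923) for MEIS1-WT, MEIS1-deltaHD and M33-MEIS1. No pair of constructs passed, and M33-MEIS1 minus MEIS1-deltaHD was 0.41 (adjusted p = 0.335).

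Fosb and Fosl1 were dim. Fosb, which codes for an AP-1 subunit with a short splice form known from brain, read 2.28 to 26.4 over the 12 arrays and was above the 40th percentile on 6 of them. It passed in 0 of the 6 comparisons, and differed from control by 0.34 (adjusted p = 0.312), -0.05 (adjusted p = 0.885) and -0.23 (adjusted p = 0.522) in cells given MEIS1-WT, MEIS1-deltaHD and M33-MEIS1. Control arrays alone spanned 2.28 to 17.7, which is wider than the gap between any group means.

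Fosl1, which codes for Fra-1, was the only Fos family gene that passed as higher than control. Probe set 1417487_at read 37.5, 33.3 and 35.7 with MEIS1-WT, 40.7, 22.8 and 31.7 with MEIS1-deltaHD, 27.7, 29.9 and 34.4 with M33-MEIS1, and 13.1, 31.2 and 19.4 in control. With MEIS1-WT all 3 arrays exceeded the control arrays, and the other groups overlapped control. The MEIS1-WT difference of 0.50 (SE 0.19, adjusted p = 0.0470) passed narrowly, and it was lost under 14 of 24 alternative settings. MEIS1-deltaHD and M33-MEIS1 differed from control by 0.37 (adjusted p = 0.132) and 0.35 (adjusted p = 0.172). Without control replicate 2, the brightest control array for Fosl1, both passed as higher, at 0.56 (adjusted p = 0.0323) and 0.54 (adjusted p = 0.0455).

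The Jun family split into Junb and Jund, which were lower with every construct, and Jun, which was lower with M33-MEIS1 only among the tests against control. Junb codes for a subunit that often restrains Jun in growth control and whose loss in mouse myeloid cells gives a myeloproliferative disease. Probe set 1415899_at read 94.2, 84.7 and 108 with MEIS1-WT, 95.1, 87.0 and 89.8 with MEIS1-deltaHD, 86.9, 94.2 and 80.0 with M33-MEIS1, and 175, 217 and 174 in control. The construct groups overlapped and all lay below control, at -0.87 (SE 0.12, adjusted p = 2.45e-06), -0.93 (SE 0.12, adjusted p = 8.92e-07) and -0.98 (SE 0.12, adjusted p = 5.76e-07). Between constructs the Junb differences were 0.06, -0.05 and -0.11, and 0 of 3 passed.

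Jund codes for the Jun protein that resting cells also make. Probe set 1449117_at read 341, 446 and 446 with MEIS1-WT, 349, 287 and 369 with MEIS1-deltaHD, 338, 315 and 339 with M33-MEIS1, and 530.0, 571 and 509 in control. All construct arrays were below all control arrays. The differences were -0.38 (SE 0.10, adjusted p = 0.00525) with MEIS1-WT, -0.66 (SE 0.10, adjusted p = 1.48e-05) with MEIS1-deltaHD and -0.67 (SE 0.10, adjusted p = 1.59e-05) with M33-MEIS1. The MEIS1-WT result was lost when MEIS1-WT replicate 1, the lowest of its group, was left out (-0.26, adjusted p = 0.0614), and when arrays were centred on their median (-0.19, adjusted p = 0.225).

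Jun codes for the AP-1 subunit that drives cells into the division cycle in many tissues. Probe set 1417409_at read 285, 246 and 301 with MEIS1-WT, 214, 161 and 240.4 with MEIS1-deltaHD, 106, 154 and 112 with M33-MEIS1, and 198, 186 and 270.2 in control. The M33-MEIS1 arrays were below every other array, and the MEIS1-WT and control arrays overlapped. Jun fell by 0.74 with M33-MEIS1 against control (SE 0.14, adjusted p = 0.000304). It differed from control by 0.34 with MEIS1-WT (adjusted p = 0.0757) and by -0.08 with MEIS1-deltaHD (adjusted p = 0.697).

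Promoter windows of Jun and Junb are shown because these genes moved apart. The Jun window lies at chr4:95052173-95052472 on the minus strand of GRCm38.p6, with the letters TGACATCA in capitals at -45 to -38, a form of AP-1 site known from the Jun promoter. The Junb window lies at chr8:84978699-84978998 on the minus strand, with TGACAG, the letters of the MEIS1 core site, in capitals at -112 to -107.
Jun: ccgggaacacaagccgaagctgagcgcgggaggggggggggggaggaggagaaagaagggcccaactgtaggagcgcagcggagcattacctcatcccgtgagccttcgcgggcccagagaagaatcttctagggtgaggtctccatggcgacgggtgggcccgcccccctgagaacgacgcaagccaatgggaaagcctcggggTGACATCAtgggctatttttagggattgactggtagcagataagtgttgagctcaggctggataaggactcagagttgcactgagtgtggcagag
Junb: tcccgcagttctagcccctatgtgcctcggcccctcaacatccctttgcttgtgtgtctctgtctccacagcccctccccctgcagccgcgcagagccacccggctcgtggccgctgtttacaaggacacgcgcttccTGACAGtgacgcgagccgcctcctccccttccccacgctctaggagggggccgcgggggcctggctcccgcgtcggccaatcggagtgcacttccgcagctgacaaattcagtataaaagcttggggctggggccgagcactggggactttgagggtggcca
TGACATCA was present in 3.62% of all windows and TGACAG in 19.2%, on either strand.

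Egr1, which codes for a zinc finger factor that favours monocyte over granulocyte fate in mouse progenitors, separated MEIS1-WT from both other constructs. Probe set 1417065_at read 448, 365 and 448 with MEIS1-WT, 158, 151 and 224 with MEIS1-deltaHD, 115, 111 and 123 with M33-MEIS1, and 433, 793 and 398 in control. Signals of control and MEIS1-WT overlapped, whereas all arrays of MEIS1-deltaHD and M33-MEIS1 lay below all arrays of both MEIS1-WT and control. Against control, Egr1 was lower with MEIS1-deltaHD, at -1.48 (SE 0.17, adjusted p = 2.10e-07), and with M33-MEIS1, at -2.01 (SE 0.17, adjusted p = 2.19e-09). MEIS1-WT minus control was -0.29 (SE 0.17, adjusted p = 0.205).

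Set directly against each other, Egr1 was higher with MEIS1-WT than with MEIS1-deltaHD by 1.19 (SE 0.17, adjusted p = 4.16e-05). With M33-MEIS1 it was lower than with MEIS1-WT, at -1.71 (SE 0.17, adjusted p = 9.97e-08). These 2 differences passed in each of the 24 alternative settings. M33-MEIS1 minus MEIS1-deltaHD was -0.53 (adjusted p = 0.199), which passed in 2 of 24 settings. Without control replicate 2, the highest of all arrays for Egr1, MEIS1-WT minus control was 0.01 (adjusted p = 0.967), and MEIS1-deltaHD minus control was -1.17 and still passed.

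Egr3, which codes for a related factor known from lymphocytes and neurons, had the same order of constructs. Probe set 1436329_at read 114, 104 and 112 with MEIS1-WT, 28.6, 32.1 and 54.7 with MEIS1-deltaHD, 26.2, 20.9 and 35.8 with M33-MEIS1, and 53.4, 108 and 27.5 in control. The MEIS1-WT arrays lay close together above both other constructs, and the control arrays ran from the level of M33-MEIS1 up to that of MEIS1-WT. Egr3 was higher with MEIS1-WT than with MEIS1-deltaHD by 1.24 (SE 0.25, adjusted p = 0.00188), and M33-MEIS1 minus MEIS1-WT was -1.55 (SE 0.25, adjusted p = 0.000114).

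The Egr3 differences from control were 0.81 with MEIS1-WT (SE 0.25, adjusted p = 0.0129), -0.43 with MEIS1-deltaHD (adjusted p = 0.176) and -0.74 with M33-MEIS1 (SE 0.25, adjusted p = 0.0244). Without control replicate 2 the M33-MEIS1 difference was -0.35 (adjusted p = 0.254). Without control replicate 3 the MEIS1-WT difference was 0.45 (adjusted p = 0.130) and the MEIS1-deltaHD difference was -0.80 (adjusted p = 0.00578). The M33-MEIS1 call held in 17 of 24 alternative settings. It was also lost without M33-MEIS1 replicate 1 (adjusted p = 0.0652) or 2 (adjusted p = 0.104), with quantile normalization, median scaling or no filter, and without the intensity trend. The MEIS1-WT call held in 22 of 24, and its other loss was without the intensity trend (adjusted p = 0.0699). The other Egr3 probe set, 1421486_at, read 2.27 to 7.28 on the construct arrays and 18.2, 24.8 and 4.81 on the control arrays, and was above the 40th percentile on 2 arrays.

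Egr2, which codes for a factor that acts with Egr1 in mouse macrophage fate and is needed for myelin in nerve, was dim. Probe set 1427683_at read 13.6, 24.4 and 20.2 with MEIS1-WT, 11.5, 9.56 and 11.8 with MEIS1-deltaHD, 16.7, 17.2 and 17.1 with M33-MEIS1, and 35.3, 69.9 and 29.8 in control. All construct arrays were below all control arrays. The differences from control were -0.74 (SE 0.21, adjusted p = 0.00816), -1.12 (SE 0.21, adjusted p = 0.000157) and -0.83 (SE 0.21, adjusted p = 0.00382), and 0 of 3 differences between constructs passed. Without control replicate 2, MEIS1-WT and M33-MEIS1 lost the call, at -0.47 (adjusted p = 0.101) and -0.55 (adjusted p = 0.0515), and MEIS1-deltaHD kept it at -0.85. The dimmer Egr2 probe set, 1427682_a_at, read 19.2, 14.03 and 11.4 with MEIS1-WT, 2.02, 18.3 and 9.18 with MEIS1-deltaHD, 7.66, 3.62 and 10.9 with M33-MEIS1, and 16.7, 47.2 and 10.2 in control. Its groups overlapped, except that all M33-MEIS1 arrays were below all MEIS1-WT arrays, and none of its 6 tests passed.

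An Egr2 promoter window is shown because it holds the box bound by SRF, the factor that with its ternary complex partners switches on many immediate early genes. It lies at chr10:67537619-67537918 on the plus strand of GRCm38.p6, 1 of 5 windows RefSeq gives for Egr2. Capitals mark the CArG box at -72 to -63 and ACGTCA, the core of the cyclic AMP response element read on the other strand, at -56 to -51.
Egr2: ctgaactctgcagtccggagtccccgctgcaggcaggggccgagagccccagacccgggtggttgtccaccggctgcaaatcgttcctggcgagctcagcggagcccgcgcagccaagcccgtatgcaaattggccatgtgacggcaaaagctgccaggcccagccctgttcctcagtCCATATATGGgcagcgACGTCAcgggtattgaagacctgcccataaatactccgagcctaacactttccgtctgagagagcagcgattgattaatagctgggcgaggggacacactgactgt
A CArG box stood in 1.63% of all windows. The table held windows for 7 of the 10 genes and none for Egr1, Egr3 and Fosl1. The letters searched on both strands were TGACGTCA (1.79% of windows), TGACTCA for AP-1 (5.20%), TGACAG, the CArG box, and GCGGGGGCG or GCGTGGGCG for Egr proteins (3.47%). The searches for TGACGT and TGACATCA were added after the windows had been read, and TGACGT lies within TGACGTCA. The Fosl2 and Fosb windows held GCGGGGGCG, at -79 to -71 and -50 to -42, and none of the letters was in the Jund window.

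Counted over the 10 genes, 2 were higher and 5 lower with MEIS1-WT than in control, against 13.3% and 19.4% of all features. With MEIS1-deltaHD 0 were higher and 6 lower, against 13.8% and 22.7%. With M33-MEIS1 0 were higher and 8 lower, against 12.4% and 18.3%. The share that was lower was above the background in each comparison, at 5, 6 and 8 of 10. The median difference of the 10 genes was -0.34, -0.80 and -0.74 for MEIS1-WT, MEIS1-deltaHD and M33-MEIS1, beside medians of -0.12, -0.17 and -0.13 over all features. The 3 comparisons use the same control arrays and are not independent of each other. Scaling shifted the whole distribution: of all called features 40.7%, 37.8% and 40.3% were higher in the same order, but 51.1%, 49.7% and 50.7% after quantile normalization and 67.5%, 70.7% and 69.9% after centring on array medians. The medians over all features then became 0.00238, -0.0134 and -0.00902, or 0.07, 0.09 and 0.06. Fos, Fosl2 and Junb still passed as lower with each construct under both.

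**Figure D2:**
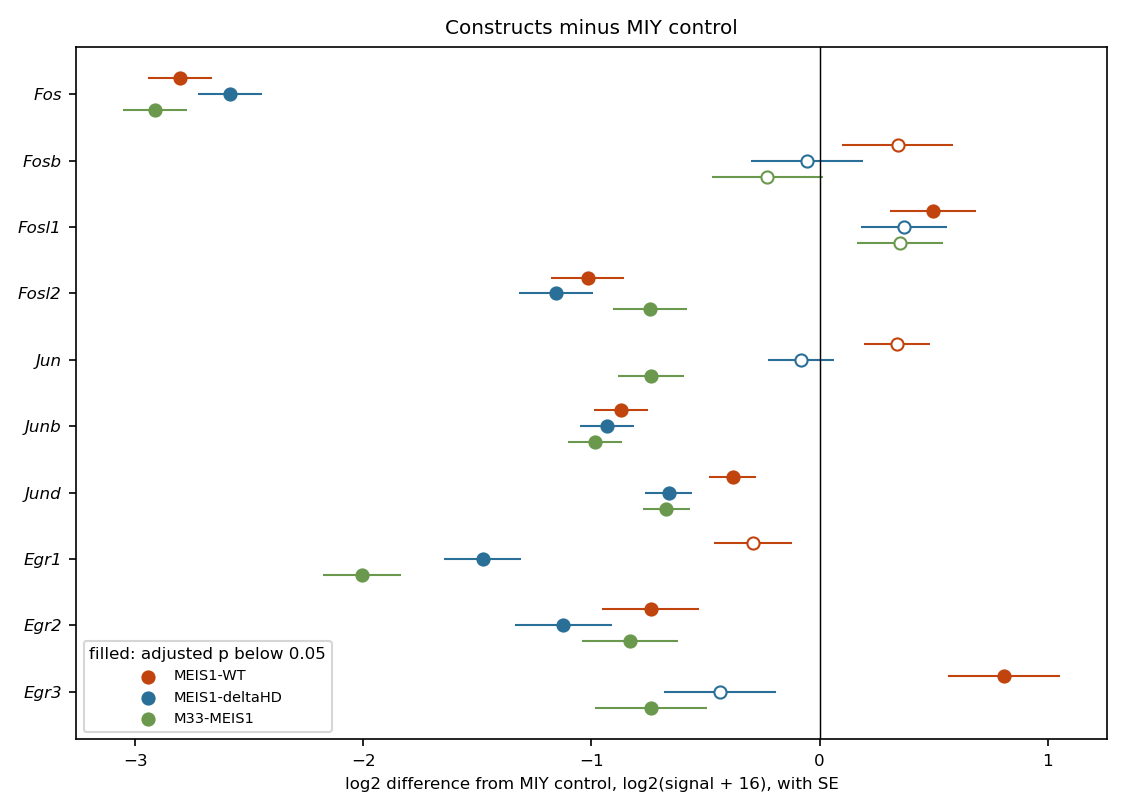
Log2 difference from MIY control of log2(signal + 16) for each gene and construct, with the SE as bars and filled points for an adjusted p below 0.05. Fos lies furthest to the left with all 3 constructs (-2.80, -2.58 and -2.91), and Egr1, Egr3 and Jun are spread out by construct.

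Between constructs the changes were few and lay in Jun, Egr1 and Egr3. MEIS1-WT against MEIS1-deltaHD gave 2 higher genes, Egr1 and Egr3, and 0 lower, against 2.43% and 2.83% of all features. M33-MEIS1 against MEIS1-deltaHD gave 0 higher and 1 lower, Jun, against 0.670% and 0.0400%. M33-MEIS1 against MEIS1-WT gave 0 higher and 3 lower, Egr1, Egr3 and Jun, against 4.11% and 2.36%. Median differences of the 10 genes were 0.33, -0.11 and -0.22, beside medians of 0.03, 0.02 and -0.00156 over all features.

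Jun was lower with M33-MEIS1 than with MEIS1-WT, at -1.08 (SE 0.14, adjusted p = 1.01e-05), and passed in all 24 settings. Against MEIS1-deltaHD it was -0.66 (SE 0.14, adjusted p = 0.0272), a call lost in 7 of 24 settings, among them without M33-MEIS1 replicate 1 (-0.57, adjusted p = 0.156) and without MEIS1-deltaHD replicate 3 (-0.54, adjusted p = 0.138). MEIS1-WT minus MEIS1-deltaHD was 0.42 for Jun (adjusted p = 0.105) and 0.28 for Jund (adjusted p = 0.136).

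Beside these differences, monocyte markers ran the other way. They were lower with MEIS1-WT than with MEIS1-deltaHD in 10 of 12, and higher with M33-MEIS1 than with MEIS1-WT in 11 of 12. Of 11 granulocyte markers, 10 were lower with MEIS1-WT than with MEIS1-deltaHD, and 10 were higher with M33-MEIS1 than with MEIS1-WT. Their part in the results for Egr1, Egr3 and Jun was not tested.

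**Figure D3:**
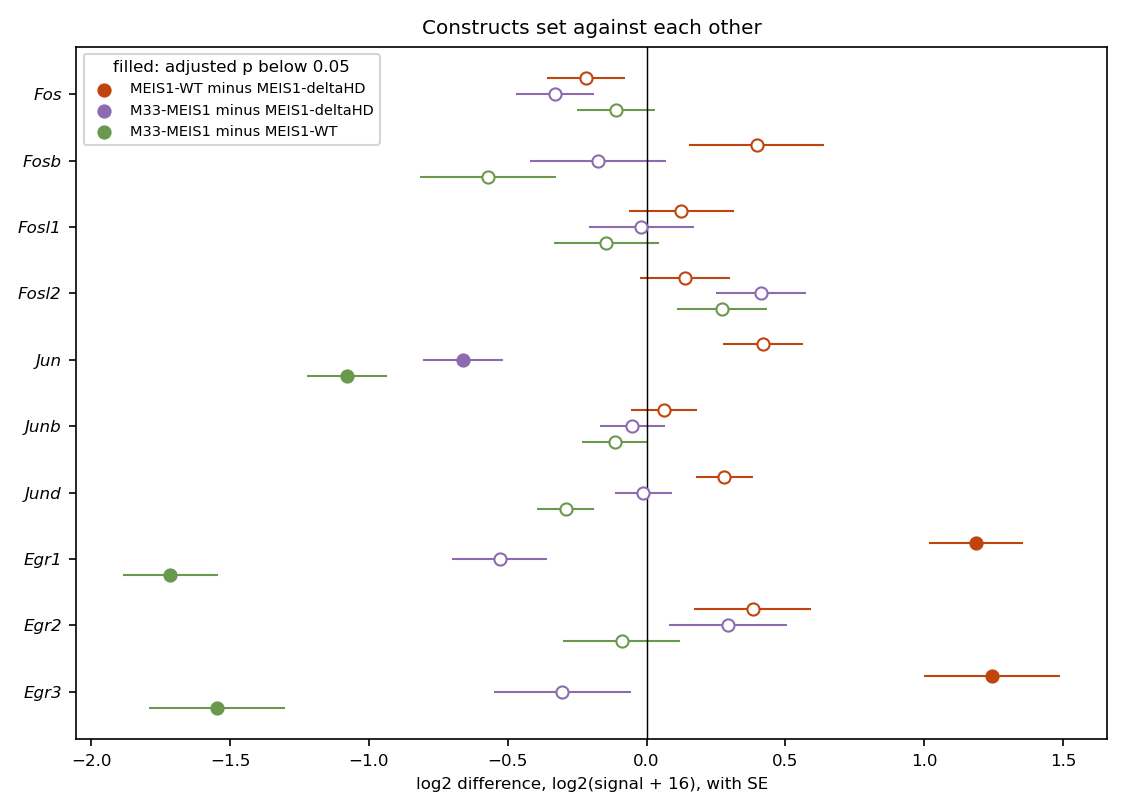
Log2 difference of log2(signal + 16) between constructs for each gene, with the SE as bars and filled points for an adjusted p below 0.05. Egr1 and Egr3 lie right of 0 for MEIS1-WT minus MEIS1-deltaHD (1.19 and 1.24) and left of it for M33-MEIS1 minus MEIS1-WT (-1.71 and -1.55), and the other genes except Jun cluster nearer to 0 with open points.

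With every probe set tested singly, 5 further probe sets of Fosl1, Fosl2, Jun, Jund and Egr2 could be set beside those above. All 5 were called in 0 of their tests for MEIS1-WT or MEIS1-deltaHD against control, where 31.0% and 34.5% of all probe sets were called, and 1 was called for M33-MEIS1 against control, where 28.9% were. That one was Fosl2 at 1422931_at, lower at -0.70 (adjusted p = 0.00998). Its differences were -0.40 (adjusted p = 0.140) with MEIS1-WT and -0.35 (adjusted p = 0.187) with MEIS1-deltaHD, smaller than for the brighter Fosl2 probe set. For this probe set M33-MEIS1 minus MEIS1-deltaHD was -0.35 (adjusted p = 0.564) and M33-MEIS1 minus MEIS1-WT was -0.30 (adjusted p = 0.502). The brighter Fosl2 probe set had the opposite sign in both, at 0.41 and 0.27, and none of these passed.

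For Jun at 1448694_at the signals were 99.7, 107 and 84.4 with MEIS1-WT, 78.8, 50.4 and 69.7 with MEIS1-deltaHD, 72.0, 71.1 and 39.2 with M33-MEIS1, and 76.8, 70.3 and 77.1 in control. M33-MEIS1 minus MEIS1-WT passed here too, at -0.58 (adjusted p = 0.0378), and was the 1 call among the 5 in a comparison where 5.54% of all probe sets were called. M33-MEIS1 minus control was -0.27 (adjusted p = 0.240) and M33-MEIS1 minus MEIS1-deltaHD was -0.12 (adjusted p = 0.868), so the 2 Jun probe sets disagreed there. None of the 5 was called for MEIS1-WT or M33-MEIS1 against MEIS1-deltaHD, where 4.53% and 0.492% of all were. The further probe sets of Fosl1 and Jund had highest signals of 23.1 and 20.8, and none of their tests passed.

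Other immediate early genes, 26 of 27 listed and measured, were mostly lower than control or did not pass. Against control 1 was higher and 10 lower with MEIS1-WT, 0 higher and 15 lower with MEIS1-deltaHD, and 0 higher and 20 lower with M33-MEIS1. Of all features, 13.3%, 13.8% and 12.4% were higher and 19.4%, 22.7% and 18.3% lower. The medians were -0.29, -0.46 and -0.61, beside -0.12, -0.17 and -0.13 over all features. Zfp36l1, whose protein marks short-lived mRNAs for decay, had the largest difference, at -2.95 (adjusted p = 8.10e-14), -2.09 (adjusted p = 5.96e-11) and -1.82 (adjusted p = 9.31e-10). Klf4, a zinc finger factor of monocyte differentiation, was next with MEIS1-WT and MEIS1-deltaHD, at -2.25 and -1.76, and differed by -1.20 with M33-MEIS1, each with adjusted p of at most 2.37e-06. Ptgs2, the inducible cyclooxygenase, was -0.31 (adjusted p = 0.295), -1.19 (adjusted p = 8.19e-05) and -1.37 (adjusted p = 2.00e-05). Nr4a1, an orphan nuclear receptor, was -0.35 (adjusted p = 0.161), -1.06 (adjusted p = 6.13e-05) and -1.25 (adjusted p = 9.56e-06).

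Between constructs the other immediate early genes formed 2 patterns. MEIS1-WT against MEIS1-deltaHD gave 7 higher and 2 lower, against 2.43% and 2.83% of all features. M33-MEIS1 against MEIS1-WT gave 3 higher and 13 lower, against 4.11% and 2.36%. M33-MEIS1 against MEIS1-deltaHD gave 0 higher and 1 lower, against 0.670% and 0.0400%. Like Egr1, Ptgs2 was higher with MEIS1-WT than with MEIS1-deltaHD by 0.89 (adjusted p = 0.0109), and M33-MEIS1 minus MEIS1-WT was -1.06 (adjusted p = 0.00160). Nr4a1 was 0.71 (adjusted p = 0.0192) and -0.91 (adjusted p = 0.00183) in these comparisons. Unlike Egr1, Zfp36l1 was lower with MEIS1-WT, at -0.86 (adjusted p = 0.000367), and M33-MEIS1 minus MEIS1-WT was 1.12 (adjusted p = 6.87e-06). Klf4 was also higher with M33-MEIS1 than with MEIS1-WT, by 1.05 (adjusted p = 6.52e-05), and -0.49 (adjusted p = 0.0834) for MEIS1-WT minus MEIS1-deltaHD.

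**Figure D4:**
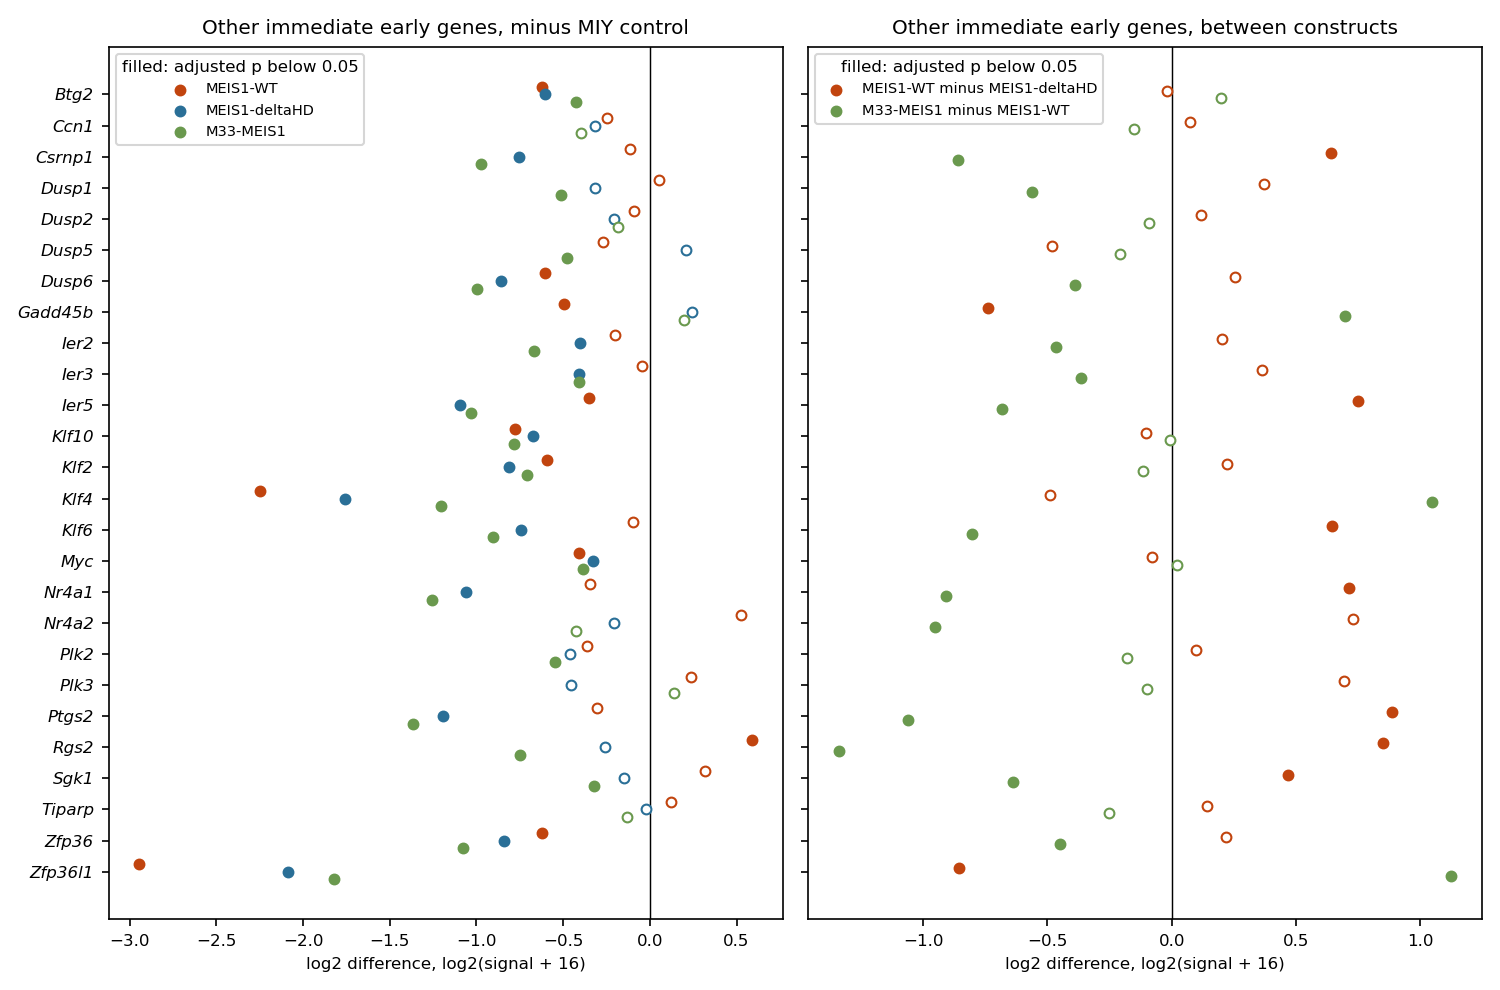
Log2 difference of log2(signal + 16) for 26 other immediate early genes, from MIY control on the left and between constructs on the right, with filled points for an adjusted p below 0.05. Most filled points on the left lie below 0, with Zfp36l1 and Klf4 furthest out, and on the right Rgs2, Ptgs2 and Nr4a1 lie opposite to Zfp36l1.

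Rgs2, which shortens signalling from G-protein coupled receptors, was chosen after its values were seen because it crossed the control level. It read 1001, 955 and 956 with MEIS1-WT, 456, 451 and 730 with MEIS1-deltaHD, 418, 371 and 336 with M33-MEIS1, and 616, 717 and 593 in control. On every array MEIS1-WT was above control, by 0.59 (adjusted p = 0.000660), and M33-MEIS1 was below it on every array, at -0.75 (adjusted p = 5.33e-05). M33-MEIS1 minus MEIS1-WT was -1.34 (adjusted p = 4.07e-08).

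Factors that pair with or resemble AP-1 proteins were measured for 11 of 12 listed genes. Of these, 6, 4 and 4 were lower and 0 higher than control in the order of constructs above. Among all features 19.4%, 22.7% and 18.3% were lower and 13.3%, 13.8% and 12.4% higher. The list's medians were -0.38, -0.19 and -0.27, beside -0.12, -0.17 and -0.13 over all features. Maf, a large Maf factor of macrophages and T cells, read 6.38 to 9.04, 7.17 to 12.8 and 5.36 to 18.6 with the constructs in that order and 114 to 224 in control. It was lower, at -3.01 (adjusted p = 9.15e-11), -2.92 (adjusted p = 2.03e-10) and -2.75 (adjusted p = 8.22e-10). Atf3, a stress-induced repressor that pairs with Jun, read 58.0 to 72.7, 43.5 to 86.5, 51.6 to 59.1 and 205 to 286, and differed by -1.59, -1.79 and -1.81, each with adjusted p of at most 5.66e-08. Jdp2, a Jun dimerization protein that represses AP-1 targets, differed by -1.12, -0.99 and -1.003, and Mafk, a small Maf partner, by -0.38, -0.47 and -0.63. Between constructs 1 gene passed, Maff, another small Maf, which was higher with MEIS1-WT than with MEIS1-deltaHD by 0.65 (adjusted p = 0.0460). Maff was named after its values were seen, and the call was lost in 14 of 24 alternative settings.

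Of SRF, its ternary complex partners, Creb1 and the Nab co-repressors, 9 of 10 listed genes were measured, and 2 were lower and 0 higher than control with each construct. These counts lie near the background of 19.4%, 22.7% and 18.3% of all features lower with MEIS1-WT, MEIS1-deltaHD or M33-MEIS1. They ran from 0 to 3 over the alternative settings, and without control replicate 1 the list had 1, 0 and 0 calls. Nab2, which is itself induced by Egr1 and restrains it, was -0.45 (adjusted p = 0.0944), -0.46 (adjusted p = 0.0818) and -0.69 (adjusted p = 0.0120). Elk1, a ternary complex factor, was -0.56 (adjusted p = 0.0381), -0.41 (adjusted p = 0.125) and 0.12 (adjusted p = 0.712). Both Nab2 and Elk1 were dim, at 6.87 to 34.3 and 4.22 to 28.5 over the 12 arrays. Creb1, which binds the cyclic AMP response element, was -0.45 (adjusted p = 0.00158), -0.23 (adjusted p = 0.0978) and -0.11 (adjusted p = 0.474). Elk4, another ternary complex factor, was -0.21 (adjusted p = 0.105), -0.29 (adjusted p = 0.0192) and -0.33 (adjusted p = 0.0107). Between constructs the list's only call was Elk1, higher with M33-MEIS1 than with MEIS1-WT by 0.68 (adjusted p = 0.0472), and the count of 1 became 0 or 2 in 17 of 24 settings.

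Of 15 genes of the Ras-MAPK chain 9 were measured, of which 0 were higher and 1 lower with MEIS1-WT, 1 higher and 3 lower with MEIS1-deltaHD, and 1 higher and 2 lower with M33-MEIS1 than in control. These counts lie near the background, as 13.3%, 13.8% and 12.4% of all features were higher and 19.4%, 22.7% and 18.3% lower. The list's medians were -0.09, -0.04 and 0.02, beside -0.12, -0.17 and -0.13 over all features. Map3k1, a kinase ahead of JNK, differed by -0.64 (adjusted p = 0.000196), -0.58 (adjusted p = 0.000569) and -0.38 (adjusted p = 0.0208). Mapk9, a JNK kinase, differed by -0.28 (adjusted p = 0.0780), -0.39 (adjusted p = 0.0128) and -0.40 (adjusted p = 0.0126), and Map2k1, which activates ERK, by -0.22 (adjusted p = 0.0831), -0.39 (adjusted p = 0.00242) and -0.25 (adjusted p = 0.0517). Without control replicate 2, the calls numbered 2 with MEIS1-deltaHD and 0 with M33-MEIS1. Map2k4, which activates JNK, differed by -0.09 (adjusted p = 0.509), 0.27 (adjusted p = 0.0343) and 0.26 (adjusted p = 0.0461). It was lower with MEIS1-WT than with MEIS1-deltaHD, at -0.36 (adjusted p = 0.0273), and higher with M33-MEIS1 than with MEIS1-WT, by 0.35 (adjusted p = 0.0271), calls lost in 8 and 7 of 24 settings. These arrays report mRNA, and kinase activity was not measured.

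Genes often described as targets of AP-1 or Egr1 were lower than control in 10 of 15 measured with each construct. In the order of constructs above, 1, 0 and 0 were higher. Shares of all features were 19.4%, 22.7% and 18.3% lower and 13.3%, 13.8% and 12.4% higher. Mmp13, a collagenase with an AP-1 site in its promoter, read 0.5998 to 5.92, 0.963 to 4.62, 2.56 to 31.6 and 113 to 179, and differed by -3.06, -3.08 and -2.53. Ccl2, the monocyte chemoattractant, differed by -2.58, -2.81 and -2.86, Il1b, the cytokine IL-1 beta, by -2.03, -1.87 and -1.46, and Mmp12, macrophage elastase, by -1.84, -1.92 and -0.87. All 4 are also genes that monocytes and macrophages make. Between constructs the list gave 0 higher and 1 lower for MEIS1-WT against MEIS1-deltaHD, 1 and 0 for M33-MEIS1 against MEIS1-deltaHD, and 2 and 0 for M33-MEIS1 against MEIS1-WT. For all features these shares were 2.43% and 2.83%, 0.670% and 0.0400%, and 4.11% and 2.36%. The call for M33-MEIS1 against MEIS1-deltaHD was lost in 13 of 24 settings. All of these lists were drawn up with earlier results of the same arrays known, and their counts are descriptions.

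The genes whose profiles over the 12 arrays lay nearest to a member were found by the root mean square difference of centred log2(signal + 16) values. For Fos they were Atf5 and Slc15a3, both at 0.24, and Cp, Rnf213 and Mx1, each at 0.30, where the median gene stood at 1.19. Rnf213 and Mx1 are known as interferon-induced genes. For Egr1 they were Ptgs2 at 0.33, Metrnl at 0.34, Nr4a1 at 0.37, Gcnt2 at 0.39 and Trpc6 at 0.42, with a median of 0.87. For Jun they were Mob3b at 0.22, Lrriq3 at 0.23, Prkd2 and Gm16499 at 0.24 and Fgd3 at 0.25, with a median of 0.50. The arrays fall into 4 groups, so nearness here is mainly a likeness of group means.

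**Figure D5:**
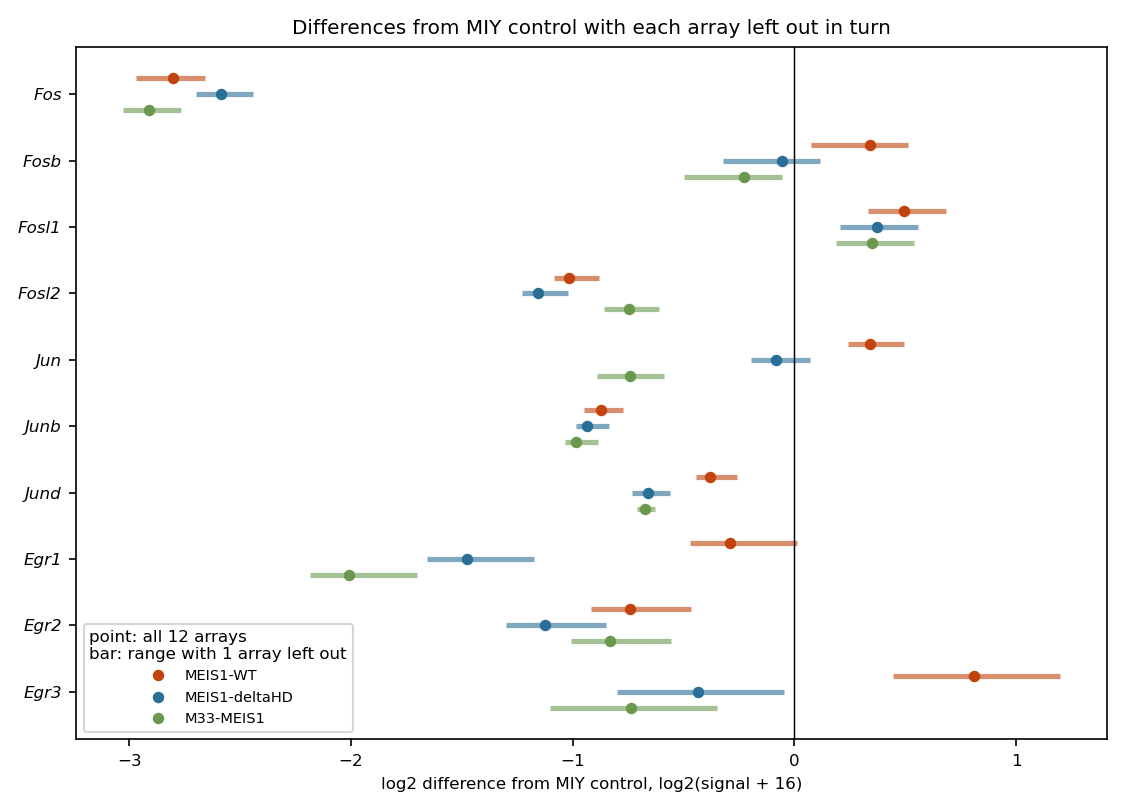
Log2 difference from MIY control of log2(signal + 16) for each gene and construct on all 12 arrays (points) and its lowest and highest value when 1 array at a time is left out (bars). The bars of Fos, Fosl2 and Junb are short and stay left of 0, whereas those of Egr3 are long and run from -0.80 to -0.04 with MEIS1-deltaHD.

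Leaving out each array in turn moved Fos between -2.97 and -2.66 with MEIS1-WT, between -2.70 and -2.44 with MEIS1-deltaHD and between -3.03 and -2.77 with M33-MEIS1. Egr1 moved between -1.66 and -1.17 with MEIS1-deltaHD and between -2.19 and -1.70 with M33-MEIS1. All of these passed in each of the 12 fits.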

How the data were processed

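The deposited values were array intensity, the signal of each probe set on a linear scale from the authors' software GCOS 1.2, per the submitters' processing notes. Background and summary steps are not stated (not given in the sources used here). Each array had the same mean signal once the lowest and highest 2% were trimmed, so all had been scaled to a common target.

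Probe sets were named from the platform annotation, with 34945 carrying 1 symbol. Signals became log2(signal + 16). The filter asked for a signal above the array's 40th percentile on 3 or more of the 12 arrays and left 31726 probe sets. Each gene was represented by its brightest kept probe set, by mean over all arrays. One linear model with 4 groups was fitted to 12 arrays with limma 3.58.1 in R 4.3.3 (eBayes with intensity trend, 8 residual degrees of freedom), and was tested on simulated data. Two-sided p-values were adjusted (Benjamini-Hochberg) over all features within each of 6 comparisons. With 3 arrays a group, the smallest p of a two-sided exact rank test would be 0.1. The labels give replicate numbers but do not say that these pair the arrays, so no block was used. Deviations of equally numbered arrays correlated between -0.0385 and 0.0253. Such values show no visible shared effect, but cannot show whether the arrays were paired.

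The members and lists (AP-1 partners, SRF and Nab factors, Ras-MAPK chain, other immediate early genes, AP-1 or Egr1 targets, and markers of monocytes, fibroblasts, mast cells, granulocytes, stem cells and heat shock) were chosen with earlier results of these data known. Named were all members, up to 4 genes of each list with the largest difference from control among those called, and the 5 nearest profiles for Fos, Jun and Egr1. Marker genes were named only beside a result. List genes without a probe set of their own in the annotation used are not analysed here. Alternatives were other pseudocounts, scalings, filters, probe set rules, variance models and arrays left out in turn. Promoter windows came from RefSeq, GRCm38.p6.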

Additional observations from a re-analysis of the deposited data

How the results depend on the processing

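Of 60 member results, 27 were called, and 19 of these were called in every one of the 24 alternative settings that gave a value. For Fosb and Egr2 there was no value with the filter at the 60th percentile. No called result changed direction (0 of 27). The calls lost were those of Egr2, Egr3 and Fosl1 with MEIS1-WT, of Egr2 and Egr3 with M33-MEIS1 and of Jund with MEIS1-WT against control, of Egr3 for MEIS1-WT against MEIS1-deltaHD (without the intensity trend, adjusted p = 0.0570), and of Jun for M33-MEIS1 against MEIS1-deltaHD. The members called for M33-MEIS1 against MEIS1-deltaHD numbered 1, but 0 with no filter, with the mean of a gene's probe sets or without the intensity trend, 2 in a fit of the 2 groups alone, and 0 to 2 with 1 array left out. For MEIS1-WT against MEIS1-deltaHD 2 were called, and 1 without the intensity trend. With the replicate number as a block (replicate block), 6 members were called for MEIS1-WT against control instead of 7, and the count of members called in the other 5 comparisons was the same as without it. The call it lost was Fosl1 (adjusted p = 0.0604).

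Calls also appeared. Without control replicate 3, MEIS1-WT minus control passed for Egr1 (-0.47, adjusted p = 0.0388) and Jun (0.49, adjusted p = 0.0113). M33-MEIS1 minus MEIS1-deltaHD passed for Egr1 in a fit of the 2 groups alone (adjusted p = 0.0345) and without control replicate 2 (adjusted p = 0.0205). With quantile normalization, Fosl1 passed as higher than control with MEIS1-deltaHD (0.59, adjusted p = 0.0122) and M33-MEIS1 (0.54, adjusted p = 0.0251), as it did with median scaling (0.63 and 0.54) and without control replicate 2 (0.56 and 0.54). Without MEIS1-WT replicate 1, Jund was higher with MEIS1-WT than with MEIS1-deltaHD by 0.40 (adjusted p = 0.0224).

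The signs that turned all belonged to differences that were not called, with adjusted p of 0.475 or above. MEIS1-deltaHD minus control became 0.161 with quantile normalization and 0.200 with median scaling for Fosb, and 0.174 with median scaling for Jun. With the mean of a gene's probe sets, Fosl1 became 0.0315 for M33-MEIS1 minus MEIS1-deltaHD and Fosl2 -0.0141 for M33-MEIS1 minus MEIS1-WT. Junb became -0.00257 with median scaling for MEIS1-WT minus MEIS1-deltaHD, and Jund 0.00263 with quantile normalization for M33-MEIS1 minus MEIS1-deltaHD. With 1 array left out, MEIS1-WT minus control ran from -0.472 to 0.0108 for Egr1, and MEIS1-deltaHD minus control from -0.323 to 0.118 for Fosb and from -0.196 to 0.0726 for Jun. M33-MEIS1 minus MEIS1-WT ran from -0.212 to 0.0120 for Egr2 and from -0.197 to 0.0594 for Fos. MEIS1-WT minus MEIS1-deltaHD ran from -0.0150 to 0.259 for Fosl1 and from -0.0165 to 0.135 for Junb, and M33-MEIS1 minus MEIS1-deltaHD from -0.159 to 0.115 for Fosl1 and from -0.114 to 0.0590 for Jund.

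Adding 64 to the signal shrank the differences of dim genes by over 1.5 times (Egr2 with MEIS1-deltaHD to -0.52 from control), as its construction implies. The counts for other immediate early genes ran from 10 to 14, from 12 to 17 and from 14 to 22 for MEIS1-WT, MEIS1-deltaHD and M33-MEIS1 against control. Over all features, 142 were called for M33-MEIS1 against MEIS1-deltaHD, but 31 without the intensity trend, 58 without MEIS1-deltaHD replicate 1 and 198 without control replicate 2. For MEIS1-WT against MEIS1-deltaHD 1050 were called, and 605 without the intensity trend. The cause of these changes was not tested. The number of arrays and dim probe sets, above all Fosb, Egr2 and Fosl1, limit the precision.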

Other observations

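Markers of mast cells and basophils, 9 of 10 listed and measured, differed in direction by construct. With MEIS1-WT 1 was higher and 7 lower than in control, and with MEIS1-deltaHD 2 were higher and 6 lower. With M33-MEIS1 5 were higher and 1 lower. Over all features 13.3%, 13.8% and 12.4% were higher and 19.4%, 22.7% and 18.3% lower, in the same order. Their summed signal was 1883 to 2001, 2220 to 2356, 4090 to 4429 and 2675 to 3674 in MEIS1-WT, MEIS1-deltaHD, M33-MEIS1 and control. M33-MEIS1 was thus the group with the lowest Jun and Egr1 signals and the highest mast cell sums.

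Granulocyte markers, 11 of 11 measured, were higher in 1 and lower in 5 with MEIS1-WT than in control, higher in 7 and lower in 1 with MEIS1-deltaHD, and higher in 8 and lower in 1 with M33-MEIS1. Stem and progenitor markers, 6 of 7 measured, were higher in 3 and lower in 2 with MEIS1-WT, and higher in 1 and lower in 4 with each of MEIS1-deltaHD and M33-MEIS1. Their sums were 3752 to 3859, 3009 to 3159, 2935 to 3028 and 3661 to 3997 in the same order of groups. The MEIS1-WT sums overlapped control although single genes moved in opposite directions. Mean signals with MEIS1-WT and in control were 813 and 517 for Cd34, 331 and 158 for Flt3, and 1865 and 2279 for Hoxa9.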
